A study of Canis lupus familiaris with 34 samples.

Results

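PAGE3 and GPAT2 are genes of the cancer-testis type. They were chosen by their measured levels across 34 RNA sequencing libraries of dog osteosarcoma, in which a tumour counts as on for a gene at 2 FPKM or more and as off at 0.1 FPKM or less. FPKM counts sequenced fragments per kilobase of a transcript, adjusted for how many fragments the library holds. The 2 genes are 2 of the 23988 rows of the expression table. Because their levels led to their choice, the levels and states below are a description with no test.

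Genes of the cancer-testis type are silent in most adult tissues, active in the testis or another germline tissue, and active again in part of the cancers. PAGE3 belongs to the P antigen family, whose best known members in humans are cancer-testis antigens. GPAT2 encodes a mitochondrial enzyme that joins a fatty acid to glycerol 3-phosphate, the first step in making glycerolipids, and in mice it is expressed in the testis and takes part in the making of piRNAs, the small RNAs that hold transposons down in germ cells. Osteosarcoma is a bone cancer whose cells lay down immature bone matrix.

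The groups were 1 metastasis (DOS.6M), 2 cell lines of osteosarcoma, OSCA.8 and OSCA.78, 1 culture of osteoblasts (CNOB), the normal bone-forming cells, and 30 libraries of primary bone tumours. Every library carries the breed label Golden Retriever, whereas the text on the design also names Rottweilers, and the lines came from primary tumours taken earlier. No treatment, age or genotype is given, and total RNA was used throughout. Libraries DOS.46 and DOS.46.2, which have 1 title number in common, were averaged on the log2 scale as 1 tumour, which leaves 29 primary tumours.

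Bone-forming marker genes were present in the tissue the labels name. Of 7 such markers, the metastasis had 7 at 2 FPKM or more, OSCA.8 had 4, OSCA.78 had 4, the osteoblast culture had 6, and each primary tumour had 6 or 7. Their mean log2 level was 7.14 in the metastasis, 4.75 in OSCA.8, 4.05 in OSCA.78 and 5.67 in the osteoblast culture, and ran from 6.65 to 10.3 in the primary tumours. Summed FPKM ran from 479053 to 1418310 per library, with a median of 623084. The tumours DOS.100 and DOS.32 stood out as alike, since across genes they departed from the tumour mean together, with r = 0.84, against r = 0.73 for DOS.46 and DOS.46.2. The labels do not tie DOS.100 to DOS.32, and the main counts for GPAT2 are given with both apart and as 1 tumour.

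PAGE3 varied strongly between tumours. Its level among the 29 primary tumours ran from 0 to 287 FPKM with a median of 1.18 FPKM. Its standard deviation of 2.80 on the log2(FPKM + 1) scale was the second largest among the rows with a gene symbol. Among all rows past a filter on low values, with or without a symbol, it ranked 72. It was on in 11 tumours, off in 3 and between the thresholds in 15. In bulk tissue, fewer cells that express a gene and less RNA per expressing cell cannot be told apart.

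PAGE3 was highest in DOS.8 at 287 FPKM and in DOS.24 at 249 FPKM. DOS.116 had 128 FPKM, DOS.46 had 119 FPKM, DOS.6 had 105 FPKM, DOS.11 had 96.2 FPKM, DOS.114 had 86.3 FPKM and DOS.28 had 30.7 FPKM. These 8 tumours, all at 30 FPKM or more, stood apart from the other 3 that were on. DOS.73 had 6.85 FPKM, DOS.84 had 6.52 FPKM and DOS.105 had 3.76 FPKM, and no tumour lay between DOS.73 and DOS.28.

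The remaining tumours formed a slope with no such gap. The 15 tumours between the thresholds ran from 0.140 to 1.999 FPKM with a median of 0.909 FPKM, and the highest of them, DOS.110, lay just outside the on state. DOS.37 lay just outside the off state at 0.140 FPKM. The off tumours were DOS.70 at 0.0913 FPKM, and DOS.112 and DOS.56, both listed at 0.

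Low PAGE3 values rest on very few fragments. The low values of the gene fell on whole multiples of 1 step, equal to 0.0444 FPKM in the median library, for 11 of the 11 values under 1 FPKM that were checked (the largest deviation was 0.0442 of a step). If a step is read as 1 fragment, the off threshold of 0.1 FPKM equals 2.25 fragments and the on threshold equals 45.1 fragments. A floor of 3 fragments, used here for a count of 0, equals 0.133 FPKM in the median library. The off state of PAGE3 could thus not be told apart from a level just above the threshold. For DOS.110 the 95% Poisson interval, which covers counting error only, ran from 1.49 to 2.64 FPKM and thus spanned the on threshold.

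Counting error was small at the top of the order. The interval of DOS.8 was 281 to 294 FPKM and that of DOS.24 was 243 to 255 FPKM, so the order of these 2 tumours did not depend on it. The interval of DOS.116 was 124 to 133 FPKM and overlapped that of library DOS.46, which was 116 to 126 FPKM. Among the tumours from 0.659 to 1.999 FPKM, neighbours in the order did not differ beyond these intervals.

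GPAT2 was lower than PAGE3 at its peak and had a smaller standard deviation. Its level ran from 0 to 39.3 FPKM with a median of 1.08 FPKM, and its standard deviation on the log2(FPKM + 1) scale was 1.62. That value ranked 115 among the rows with a gene symbol and 329 among all rows past the filter. GPAT2 was on in 12 tumours, off in 4 and between the thresholds in 13.

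GPAT2 was highest in DOS.6 at 39.3 FPKM, followed by DOS.32 at 30.8 FPKM and DOS.100 at 30.7 FPKM. DOS.84 had 17.2 FPKM and DOS.28 had 15.2 FPKM. These 5 tumours stood above 10 FPKM, and the other 7 tumours that were on lay between 2.24 FPKM (DOS.112) and 4.37 FPKM (DOS.11). No tumour lay between DOS.11 and DOS.28. The intervals of DOS.32 (29.5 to 32.1 FPKM) and DOS.100 (29.5 to 32.0 FPKM) overlapped, and with both counted as 1 tumour GPAT2 was on in 11 tumours.

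The 13 tumours between the thresholds held 0.128 to 1.95 FPKM of GPAT2 with a median of 0.695 FPKM. DOS.24 lay just outside the on state at 1.95 FPKM and DOS.76 just outside the off state at 0.128 FPKM. The off tumours were DOS.101 at 0.0840 FPKM, DOS.70 at 0.0646 FPKM, DOS.105 at 0.0453 FPKM and DOS.73, listed at 0. A step of GPAT2 was 0.0126 FPKM in the median library, so the off threshold equals 7.96 steps and the on threshold 159 steps. The off state of this gene was thus resolved more finely than that of PAGE3, with 3 steps equal to 0.0377 FPKM.

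**Figure D1:**
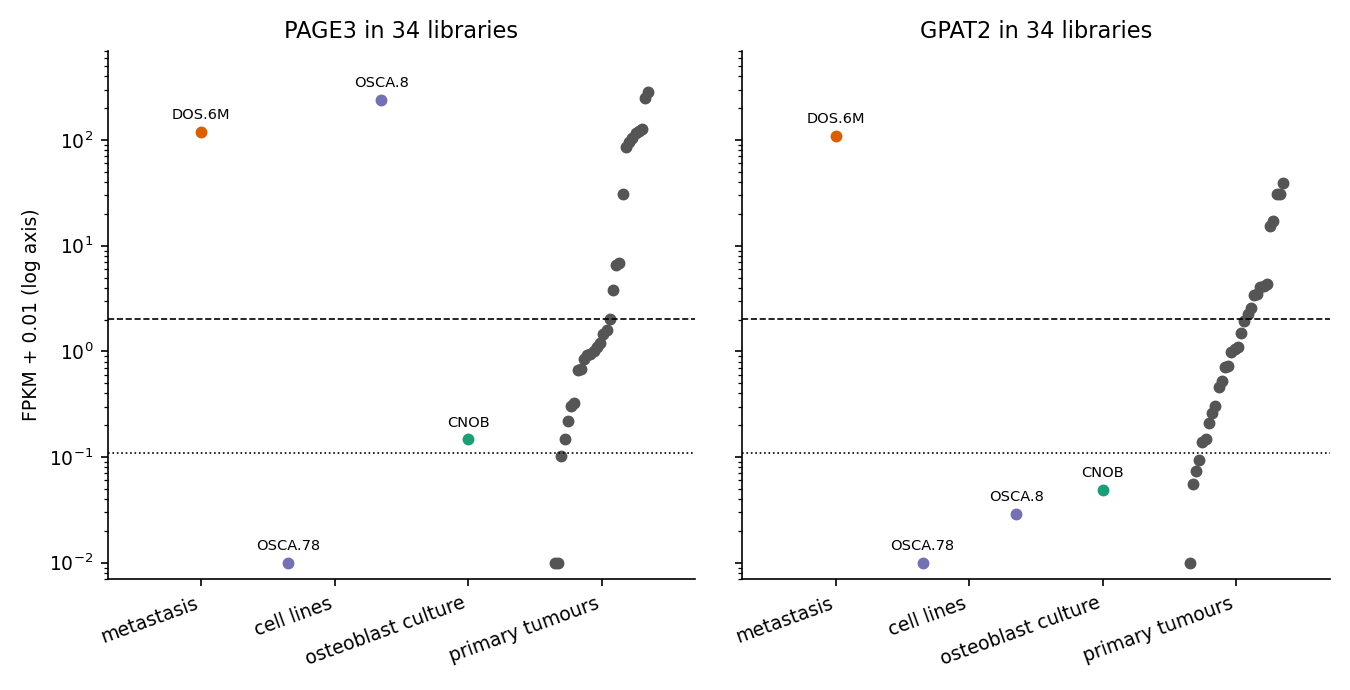
FPKM of PAGE3 (left) and GPAT2 (right) in each of the 34 libraries, plotted as FPKM + 0.01 on a log axis; each point is 1 library, the dashed line is the on threshold of 2 FPKM and the dotted line the off threshold of 0.1 FPKM. Among the primary tumours PAGE3 leaves a gap between 6.85 and 30.7 FPKM and GPAT2 one between 4.37 and 15.2 FPKM. GPAT2 is highest of all in the metastasis at 109 FPKM.

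The state of one gene did not fix that of the other. Both were on in 6 tumours (DOS.11, DOS.114, DOS.116, DOS.28, DOS.6 and DOS.84), at least one was on in 17, and neither was on in 12. GPAT2 was on in 6 of the 11 tumours with PAGE3 on (54.5%) and in 6 of the 18 tumours without it (33.3%). Its level ran from 0 to 39.3 FPKM with a median of 3.47 FPKM where PAGE3 was on, and from 0.0646 to 30.8 FPKM with a median of 1.013 FPKM where PAGE3 was not on, so the ranges overlapped almost wholly.

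Tumours with opposite states occurred in both directions. DOS.73 and DOS.105 had PAGE3 on and GPAT2 off, and DOS.112 had GPAT2 on at 2.24 FPKM with PAGE3 listed at 0. DOS.70 was the 1 tumour with both genes off. Over the 29 tumours the levels of the 2 genes had a Pearson r of 0.19 on the log2(FPKM + 1) scale and a Spearman rho of 0.09, given as a description, with both values of a tumour coming from the same library. With DOS.8 and DOS.24 left out, since they lie farthest from the PAGE3 median, r was 0.30 and rho 0.13.

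**Figure D2:**
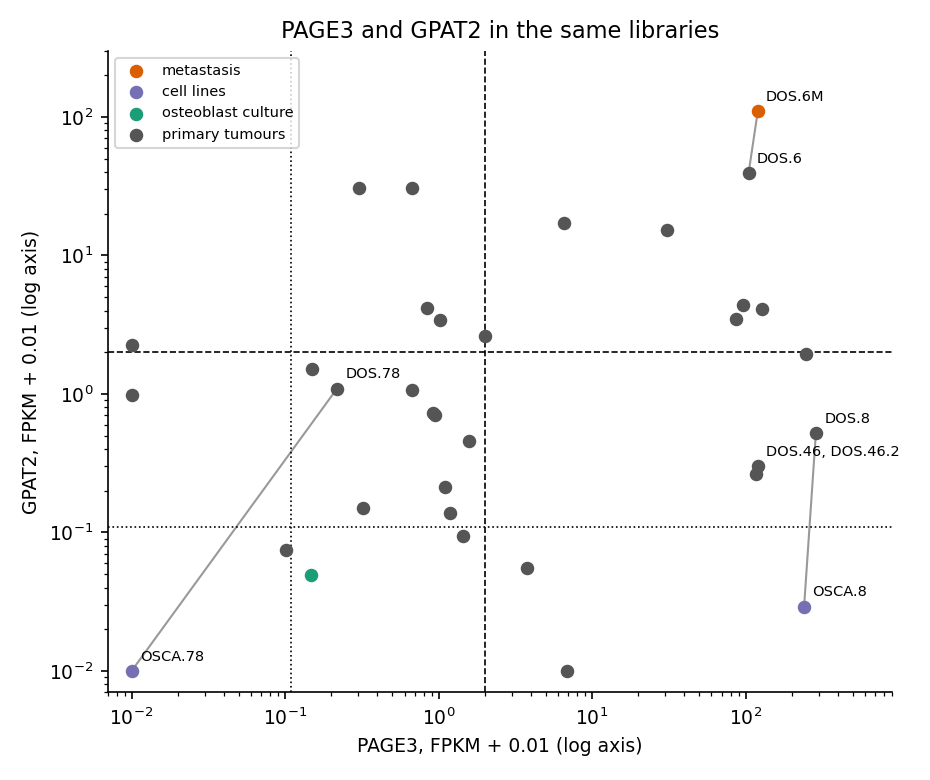
GPAT2 against PAGE3 in 34 libraries, both as FPKM + 0.01 on log axes; each point is 1 library, grey lines join libraries that share a number, dashed lines mark 2 FPKM and dotted lines 0.1 FPKM. The 6 primary tumours with both genes on lie at the upper right with the metastasis, and OSCA.8 lies at the lower right with PAGE3 at 241 FPKM and GPAT2 at 0.0191 FPKM.

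The metastasis had both genes on. PAGE3 stood at 120 FPKM in the metastasis, against 105 FPKM in the primary tumour of the same number, DOS.6, a ratio of 1.15 (95% Poisson interval 1.09 to 1.21, counting error only). GPAT2 stood at 109 FPKM in the metastasis, against 39.3 FPKM in DOS.6, a ratio of 2.79 (2.67 to 2.91). The GPAT2 level of the metastasis lay above all 29 primary tumours, and its PAGE3 level lay within their range. The labels do not state that DOS.6M and DOS.6 came from the same dog.

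The cell lines split on PAGE3 and both lacked GPAT2 at the on threshold. OSCA.8 had 241 FPKM of PAGE3, against 287 FPKM in the primary tumour DOS.8, a ratio of 0.838 (0.811 to 0.865). OSCA.78 was listed at 0 for PAGE3, against 0.208 FPKM from 5 steps in DOS.78, and the interval of this ratio ran from 0 to 0.947. For OSCA.78 the floor of 3 counts equals 0.108 FPKM, and the 95% Poisson interval of its level reached 0.133 FPKM. The line and the tumour numbered 8 were both high, and the line and the tumour numbered 78 were both below 1 FPKM.

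GPAT2 was lower in both lines than in the tumours of the same numbers. OSCA.8 had 0.0191 FPKM from 2 steps, against 0.509 FPKM in DOS.8 from 48 steps, a ratio of 0.0374 (0.00440 to 0.143). OSCA.78 was listed at 0, against 1.08 FPKM in DOS.78 from 92 steps, and the interval of this ratio ran from 0 to 0.0355. The osteoblast culture had 0.138 FPKM of PAGE3 and 0.0390 FPKM of GPAT2, each from 2 steps. It was off for GPAT2 and just above the off threshold for PAGE3. The labels do not link any line to a tumour of the same number.

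The other genes of glycerol-phosphate acylation had no off tumours, unlike GPAT2. GPAM, the main mitochondrial enzyme of this step, ran from 4.65 to 21.2 FPKM over the tumours, and AGPAT9 (now named GPAT3) and AGPAT6 (now GPAT4), the forms of the endoplasmic reticulum, ran from 0.949 to 26.04 FPKM and from 8.88 to 30.2 FPKM. GPAM and AGPAT6 were at 2 FPKM or more in all 29 tumours and AGPAT9 in 27. AGPAT1 to AGPAT5, which stand at or near the next step, include 4 genes at 2 FPKM or more in every tumour and AGPAT3, at 2 FPKM or more in 9 tumours. The Spearman rho of the 8 genes with GPAT2 ran from -0.37 (AGPAT6) to 0.25 (AGPAT1).

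The genes next to GPAT2 in the dog assembly UU_Cfam_GSD_1.0, which differs from the assembly used for these data, were read for their order only. DUSP2, a phosphatase that acts on MAP kinases, STARD7, a carrier of phosphatidylcholine, and TMEM127 lie on one side, with a rho with GPAT2 of -0.25, -0.15 and -0.05. KCNIP3, a calcium sensor, PROM2, a membrane glycoprotein, and MRPS5, a mitochondrial ribosomal protein, lie on the other, with a rho of 0.26, 0.02 and 0.08. No neighbour reached a rho of 0.6 in size. The neighbours of PAGE3 were not analysed here.

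Genes that follow PAGE3 were ranked by Spearman rho over the 29 tumours, a likeness that says nothing of shared control. All values of a tumour share its library and its scaling. Of 15164 genes past a filter on low values, 6 had a rho of 0.6 or more (0.0396%) and 16 had a rho of -0.6 or less (0.106%). Among the genes most like PAGE3 were SERTAD3, a transcription co-regulator (0.64), SLC25A33, a mitochondrial carrier of pyrimidine nucleotides (0.63), ZNF830 (0.60) and DRG1, a GTP-binding protein (0.60). FAM163A (0.58), CEP19, a centrosome protein (0.58), BBOX1, the last enzyme of carnitine synthesis (0.58), PXMP2, a peroxisomal channel (0.57), and HSBP1, a regulator of the heat shock response (0.57), were also among the highest 10.

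The opposite end had larger values. IL17RC, a receptor chain for interleukin 17, and KIFC2, a kinesin motor, both had a rho of -0.77 with PAGE3, followed by RPUSD3, a mitochondrial RNA-modifying enzyme (-0.70), FOXH1, a transcription factor of the nodal pathway (-0.68), and ZC3H7A (-0.62). IL17RC ran from 5.57 to 18.3 FPKM with a median of 11.5 FPKM in the 11 on tumours, against 18.5, 56.1 and 22.5 FPKM in the off tumours DOS.112, DOS.56 and DOS.70, with no overlap. KIFC2 ran from 4.66 to 15.6 FPKM with a median of 7.93 FPKM in the on tumours, against 33.9, 16.2 and 15.3 FPKM in the same off tumours, with a slight overlap. Without DOS.8 and DOS.24, 1 of the 10 genes with the highest rho and 4 of the 5 with the lowest stayed in those lists.

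The on and off states of PAGE3 were compared as a description, since the tumours were split by an outcome. Every on tumour lay above every off tumour for 81 of 15164 genes (0.534%), and below for 100 genes (0.659%). With 3 off tumours, each such gene rests on 3 values on that side.

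IGFBP5, a secreted protein that binds insulin-like growth factors and is abundant in bone, showed the largest difference among genes without overlap. It ran from 70.4 to 302 FPKM with a median of 119 FPKM in the PAGE3 on tumours, against 3.58, 24.01 and 3.65 FPKM in the off tumours DOS.112, DOS.56 and DOS.70. The difference of medians was 4.69 on the log2(FPKM + 1) scale. Its rho with PAGE3 over all 29 tumours was only 0.32, and OSCA.8, with PAGE3 on, held 35.3 FPKM of IGFBP5, against 119 FPKM in OSCA.78, with PAGE3 at 0. The 3 off tumours were low in IGFBP5, and no rho was computed without them. Within the on tumours, DOS.8, with the most PAGE3, held 119 FPKM of IGFBP5, and DOS.105, with the least, held 135 FPKM.

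The next 4 genes in this order were FLRT3, a cell surface protein of developing tissue, L1CAM, an adhesion molecule of neurons, RBM44, an RNA-binding protein described in mouse testis, and EYA1, a developmental transcription cofactor. FLRT3 ran from 7.86 to 42.3 FPKM in the on tumours, against 2.83 to 4.76 FPKM in the off tumours (difference of medians 2.04 on the log2 scale). L1CAM ran from 1.08 to 27.04 FPKM in the on tumours, against 0.0996 to 0.749 FPKM in the off tumours (1.81). RBM44 ran from 0.661 to 11.9 FPKM in the on tumours, against 0.0469 to 0.275 FPKM in the off tumours (1.77), and EYA1 ran from 1.71 to 13.8 FPKM, against 0.228 to 1.001 FPKM (1.71). The rho of these 4 genes with PAGE3 lay between 0.24 and 0.46.

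For GPAT2, a rho of 0.6 or more was found for 42 of 15164 genes (0.277%) and a rho of -0.6 or less for 15 genes (0.0989%). SULT4A1, a sulfotransferase-like protein of the brain, was the most like it at 0.74, followed by FAM71F2 (0.71), CALU, a calcium-binding protein of the secretory pathway (0.69), SV2C, a synaptic vesicle protein (0.69), and PSD, an exchange factor for the small GTPase ARF6 (0.68). TOX, a nuclear protein of T cell development (0.68), KIAA1324L (0.67), TMEM55A, a phosphoinositide phosphatase (0.67), SLC30A3, a zinc transporter of synaptic vesicles (0.67), and SDR16C5, a retinol dehydrogenase (0.66), completed the highest 10.

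SULT4A1 ran from 0.0604 to 2.23 FPKM with a median of 0.761 FPKM in the 12 tumours with GPAT2 on, and was listed at 0 in the 4 tumours with it off. CALU was abundant throughout, with 167 to 528 FPKM and a median of 301 FPKM in the on tumours, against 137, 170, 183 and 207 FPKM in the off tumours, an overlap at the low end. The lowest rho values with GPAT2 belonged to PCCA, a subunit of propionyl-CoA carboxylase (-0.70), EPSTI1, an interferon-induced gene (-0.66), CLYBL, a mitochondrial lyase (-0.63), SLBP, which binds the stem-loop of histone mRNAs (-0.63), and KIF27, a kinesin-like protein (-0.63). PCCA ran from 6.03 to 16.5 FPKM in the on tumours, against 17.2 to 47.4 FPKM in the off tumours, with no overlap.

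With DOS.100 and DOS.32 as 1 tumour, 8 of the 10 genes with the highest rho with GPAT2 and 3 of the 5 with the lowest stayed in those lists, and 39 genes had a rho of 0.6 or more in size, against 57 with both apart. Every GPAT2 on tumour lay above every off tumour for 29 of 15164 genes (0.191%), and below for 21 genes (0.138%). With DOS.100 and DOS.32 as 1 tumour these counts were 32 and 22, including all 29 and all 21.

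HORMAD1 stood at the head of the genes without overlap, with a difference of medians of 4.34 on the log2(FPKM + 1) scale. It encodes a protein of the meiotic chromosome axis and, like the 2 genes described here, is counted among the cancer-testis genes in humans. HORMAD1 ran from 0.175 to 34.9 FPKM with a median of 20.6 FPKM in the 12 tumours with GPAT2 on, against 0.118 FPKM in DOS.101, 0 in DOS.105, 0 in DOS.70 and 0.1498 FPKM in DOS.73. The groups were separated by a narrow margin, since DOS.112, on for GPAT2 at 2.24 FPKM, held only 0.175 FPKM of HORMAD1.

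HORMAD1 itself was on in 10 of the 12 tumours with GPAT2 on, in 8 of the 13 between the thresholds and in 0 of the 4 with GPAT2 off. By the state of PAGE3 it was on in 8 of 11 on tumours, 9 of 15 between and 1 of 3 off. Its rho with GPAT2 was 0.65 over 29 tumours, 0.62 with DOS.100 and DOS.32 as 1 tumour and 0.61 with the 2 tumours farthest from the GPAT2 median left out. Its rho with PAGE3 was 0.20. The tumours with the highest PAGE3 level differed in it, with 17.6 FPKM of HORMAD1 in DOS.24 and 0.731 FPKM in DOS.8.

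Also among the genes with the largest differences were TFAP2A, a transcription factor of neural crest and skin, BMPER, a secreted regulator of bone morphogenetic proteins, and OSTN, which encodes a peptide hormone made in bone and muscle. TFAP2A ran from 0.782 to 10.9 FPKM in the GPAT2 on tumours, against 0.0526 to 0.114 FPKM in the off tumours (difference of medians 1.97 on the log2 scale). BMPER ran from 1.45 to 17.9 FPKM in the on tumours, against 0.0623 to 0.965 FPKM in the off tumours (1.70), and OSTN ran from 0.143 to 140 FPKM, against 0 to 0.121 FPKM (1.65). For OSTN the groups met at low values, with 0.143 FPKM in DOS.84 and 0.158 FPKM in DOS.75, against 0.121 FPKM in DOS.101. Counting error was not computed for this narrow margin. With DOS.100 and DOS.32 as 1 tumour the differences were 4.14 for HORMAD1, 2.16 for TFAP2A, 1.67 for BMPER and 1.69 for OSTN. TFAP2A was also at 7.52 FPKM in OSCA.8 and 22.8 FPKM in OSCA.78, where GPAT2 was off.

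**Figure D3:**
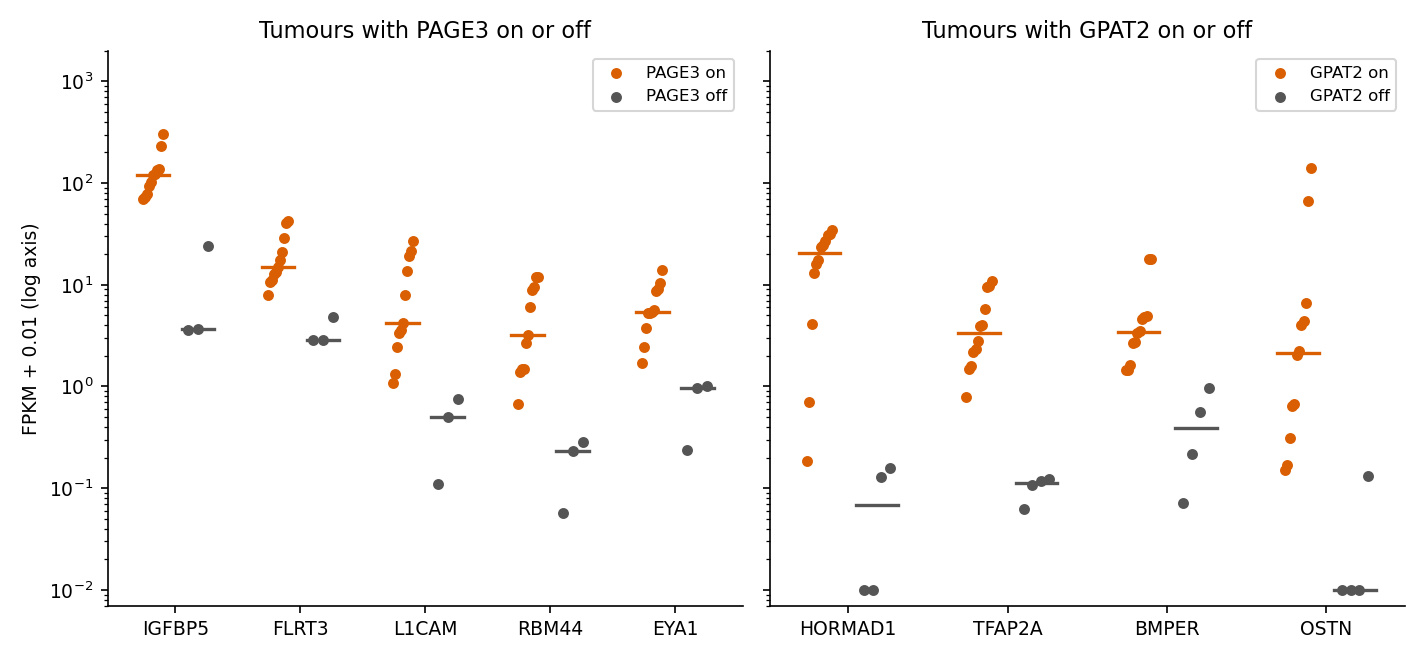
FPKM + 0.01 on a log axis of genes among those with the largest difference of medians and no overlap between tumours with PAGE3 on (11) and off (3), at left, and between tumours with GPAT2 on (12) and off (4), at right. Each point is 1 primary tumour and the bars are medians. IGFBP5 lies at 70.4 FPKM or more in every PAGE3 on tumour, and HORMAD1 comes within 0.175 and 0.1498 FPKM at the boundary of the GPAT2 groups.

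Cell type markers and cell cycle genes moved with these splits, and their part in the results was not tested. In tumours with GPAT2 on, the cell cycle markers had a median difference of -1.09 on the log2(FPKM + 1) scale with 0 of 6 genes higher, and their mean log2 level ran from 3.68 to 5.48 with a median of 4.604, against 3.38 to 6.06 with a median of 6.04 in the off tumours. Macrophage markers were lower in median in 9 of 9 genes (median difference -0.79), with a summed level of 84.0 to 1225 FPKM in the on tumours, against 370 to 1490 FPKM in the off tumours. T cell markers were lower in median in 7 of 7 genes (-0.57), with a summed level of 2.505 to 53.9 FPKM, against 11.01 to 36.9 FPKM.

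Osteoclast markers had a median difference of -2.45 between GPAT2 on and off tumours, with 0 of 3 genes higher, and a summed level of 0.0441 to 103 FPKM in the on tumours, against 17.1 to 37.8 FPKM in the off tumours. Cartilage markers went the other way at 1.28, with 4 of 4 genes higher in median, and a summed level of 127 to 1074 FPKM in the on tumours, against 16.3 to 246 FPKM in the off tumours. In all these lists the on and off tumours overlapped. The median difference over all genes past the filter was 0.00.

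Between PAGE3 on and off tumours, T cell markers had a median difference of -0.86 with 0 of 7 genes higher, and a summed level of 2.505 to 36.9 FPKM in the on tumours, against 13.5 to 28.1 FPKM in the off tumours. Osteoclast markers had a median difference of 2.85 with 3 of 3 genes higher, and a summed level of 0.206 to 103 FPKM, against 0.0915 to 37.8 FPKM. Cell cycle markers differed by 0.15 and macrophage markers by 0.36. The median over all genes was 0.01.

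Markers of germ cells were low in most tumours, but MAEL and DDX4 were each on in 5 tumours and DMRT1 in 3. SYCP1, a core protein of the synaptonemal complex, reached at most 0.270 FPKM in any primary tumour and TDRD1, a tudor protein of germ cells, at most 0.455 FPKM. The germ cell RNA helicase DDX4 ran from 0 to 3.61 FPKM and MAEL, which acts in the piRNA pathway, from 0 to 11.5 FPKM. DOS.8, with the most PAGE3, held 1.49 FPKM of DDX4, and DOS.6, with the most GPAT2, held 0.0439 FPKM of DDX4 and 11.5 FPKM of MAEL. The summed level of the 3 germ cell markers past the filter (DDX4, MAEL and DMRT1) was 0.184 to 11.98 FPKM in the PAGE3 on tumours, against 0.244 to 8.52 FPKM in the off tumours. By the state of GPAT2 it was 0.184 to 11.98 FPKM in on tumours, against 0.708 to 8.52 FPKM in off tumours. In median, 2 of the 3 genes were higher in PAGE3 on tumours and 1 of 3 in GPAT2 on tumours.

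The wider set of germline genes was made of 5 lists: cancer-testis genes of the X chromosome, cancer-testis genes of other chromosomes, meiosis, the piRNA pathway and sperm structure. Of the 139 genes of these lists in the table, 81 never reached 2 FPKM in a primary tumour and 13 were at 2 FPKM or more in all 29. Past the filter on low values were 61. On and off tumours both occurred for 24 genes, as they did for PAGE3 and GPAT2.

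PAGE3 had a larger standard deviation over the tumours than any of the listed germline genes, and GPAT2 was exceeded by PRSS50, a testis-specific protease, at 2.14 and HORMAD1 at 2.03 on the log2(FPKM + 1) scale. PRSS50 ran from 0.0210 to 301 FPKM and peaked in DOS.28, a tumour with both genes on, and DOS.75, where it was at 162 FPKM. In 9 tumours PAGE3 was higher than GPAT2 and each of the 24 genes. FPKM is scaled by the length of the transcript, but the annotation used was not given, so an order between different genes is approximate.

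Tumours differed in how many germline genes were on at once. Between 1 and 8 of the 24 genes were on per tumour, with a median of 3. The number was 1 to 8 with a median of 4 in the tumours with PAGE3 on, 1 to 6 with a median of 3 in those between, and 1 to 3 with a median of 2 in those off. For GPAT2 it was 1 to 8 with a median of 4.5 in on tumours, 1 to 6 with a median of 3 in those between, and 1 to 2 with a median of 1.5 in off tumours. DOS.116 had the most at 8, and DOS.84 and DOS.105, both with PAGE3 on, had 3 and 1.

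**Figure D4:**
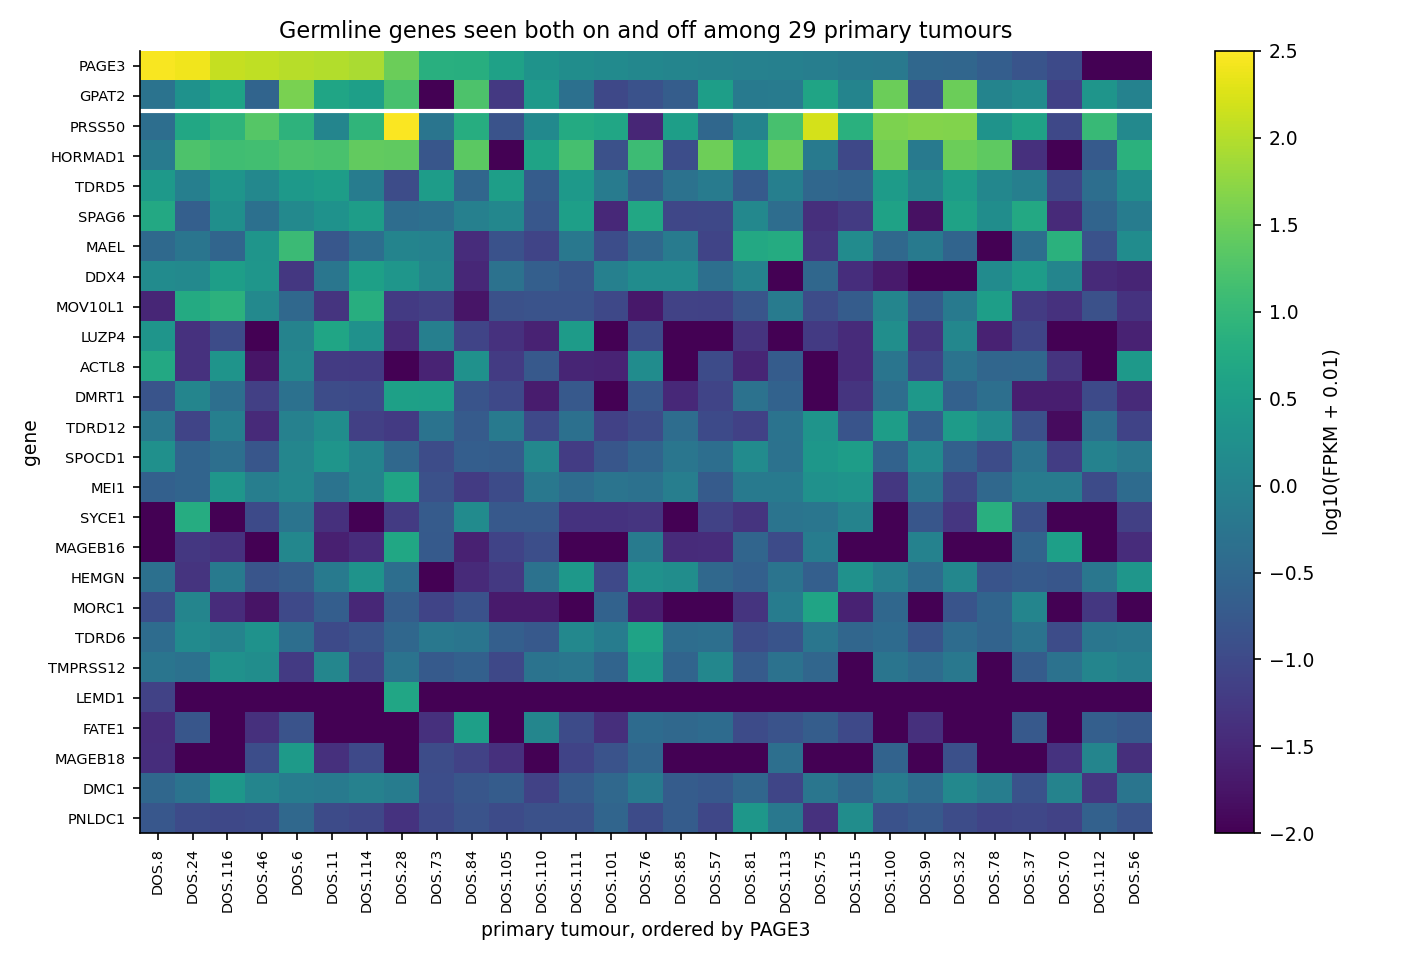
Log10(FPKM + 0.01) of PAGE3, GPAT2 and the 24 germline genes with both on and off tumours, in 29 primary tumours ordered by PAGE3 from left to right; the colour scale runs from -2 to 2.5. PRSS50 and HORMAD1 are the rows with the most bright cells below the white line, and most of the other rows are on in few tumours.

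Within the lists, few genes followed the states. By the state of PAGE3, 32 of the 61 germline genes had a higher median in on tumours and 29 a lower one, and the median difference was 0.01 on the log2(FPKM + 1) scale, as over all genes. Over all genes, 7779 were higher and 7172 lower by PAGE3. By the state of GPAT2, 38 germline genes were higher and 23 lower, with a median difference of 0.09, against 0.00 over all genes, of which 7551 were higher and 7414 lower. By list, the median difference for GPAT2 was 0.07 for cancer-testis genes of the X chromosome, 0.15 for those of other chromosomes, 0.21 for meiosis, -0.0018 for the piRNA pathway and 0.03 for sperm structure.

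The 2 germline genes with no overlap between GPAT2 on and off tumours were HORMAD1 and SPOCD1, which directs DNA methylation to transposons in mice. SPOCD1 ran from 0.210 to 2.36 FPKM with a median of 0.697 FPKM in the on tumours, against 0.0548 to 0.192 FPKM in the off tumours, and was named after its values were seen. In both genes the on tumours were higher, which makes 2 of the 61 listed genes, against 0.191% of all genes, and the difference in share was not tested. Both separations rest on low values. The groups met at 0.210 FPKM in DOS.84 against 0.192 FPKM in DOS.105 for SPOCD1, and at 0.175 FPKM in DOS.112 against 0.1498 FPKM in DOS.73 for HORMAD1. A step was worth more FPKM in the on tumour of each pair (0.985 against 0.903, and 1.13 against 0.968, of the median library). Counting error was not computed for these 2 genes. None of the 61 separated the PAGE3 states, against 0.534% of all genes above and 0.659% below. Beside shares this small, a list of 61 genes is too short for a conclusion from their absence. The germline genes with the highest rho with PAGE3 in their lists included DDX4 (0.46), ROPN1L, a sperm flagellum protein (0.37), and LUZP4 (0.36). For GPAT2 they included IGF2BP3, an RNA-binding protein of embryonic tissue (0.52), PRSS50 (0.51), TKTL1, a transketolase-like protein (0.46), and SYCE2, a synaptonemal complex protein (0.46).

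IGF2BP3 differed by state for both genes, with overlap. It ran from 1.16 to 15.3 FPKM with a median of 8.09 FPKM in PAGE3 on tumours, against 0.532, 2.12 and 0.949 FPKM in the off tumours DOS.112, DOS.56 and DOS.70. In GPAT2 on tumours it ran from 0.532 to 15.3 FPKM with a median of 8.21 FPKM, against 0.152 to 1.76 FPKM in off tumours. Cancer-testis genes with a role in mitosis, such as TTK, NUF2 and KIF2C, formed a list of their own with 9 genes past the filter. Their median difference was -0.73 by the state of GPAT2, with 0 of 9 higher, beside the lower cell cycle markers given above, and -0.05 by that of PAGE3.

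Genes that set or read DNA methylation (20 past the filter) and genes known to hold germline genes silent (29 past the filter) were looked at because germline genes are commonly repressed by methylated promoters and by Polycomb and related complexes. By the state of PAGE3 the medians of the differences were 0.18 and 0.16, and by that of GPAT2 they were -0.14 and -0.19. DNMT3B, a methyltransferase that writes new marks, ran from 1.73 to 4.81 FPKM in PAGE3 on tumours, against 1.14 to 1.39 FPKM in off tumours, and KDM5B, a histone demethylase, from 18.8 to 58.6 FPKM, against 14.5 to 18.3 FPKM. These 2 were the genes of both lists with no overlap, named after their values were seen, and both had a low rho with PAGE3 over all tumours (0.22 and 0.18). Both were higher in the on tumours, which makes 1 of 20 and 1 of 29 listed genes, against 0.534% of all genes, and the difference in share was not tested. No gene of either list separated the GPAT2 states, against 0.191% of all genes above and 0.138% below. The lists are too short beside such shares for a conclusion from this.

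The metastasis showed other germline genes at high level beside GPAT2. Of the 61 germline genes, 10 (16.4%) lay above all 29 primary tumours, against 5.0% of all genes, and 1 lay below, against 3.53% of all genes. There is 1 metastasis, so the difference has no replicate check and no test. The 10 included the tudor protein TDRKH at 45.7 FPKM, HORMAD1 at 35.05 FPKM, the synaptonemal complex genes SYCP2 at 20.7 FPKM and SYCE1 at 12.98 FPKM, and MOV10L1, an RNA helicase of the piRNA pathway, at 16.4 FPKM.

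PRAME, a cancer-testis antigen, was at 6.48 FPKM in the metastasis, against 0.124 FPKM in DOS.6 and at most 1.23 FPKM in any primary tumour. MOV10L1 was at 0.318 FPKM in DOS.6 and at most 7.69 FPKM in any primary tumour. The other 4 genes above all tumours were TDRD5 at 6.38 FPKM, DMRT1, a transcription factor of the testis, at 5.02 FPKM, TSGA10 at 4.28 FPKM and LIN28B, an RNA-binding protein of embryonic cells, at 2.54 FPKM. TDRKH and HORMAD1 passed the highest primary tumour by a small margin, at 45.5 and 34.9 FPKM in that tumour. The gene below all tumours was PLAC1, a placental gene, at 0.554 FPKM.

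Across the 61 germline genes, 32 were higher in the metastasis than in DOS.6, with a median difference of 0.04 on the log2(FPKM + 1) scale, against -0.0015 for all genes. Germ cell markers in the metastasis were at 0.0107 FPKM for DDX4, 0.351 FPKM for MAEL, 0.0942 FPKM for SYCP1 and 0.0672 FPKM for TDRD1.

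**Figure D5:**
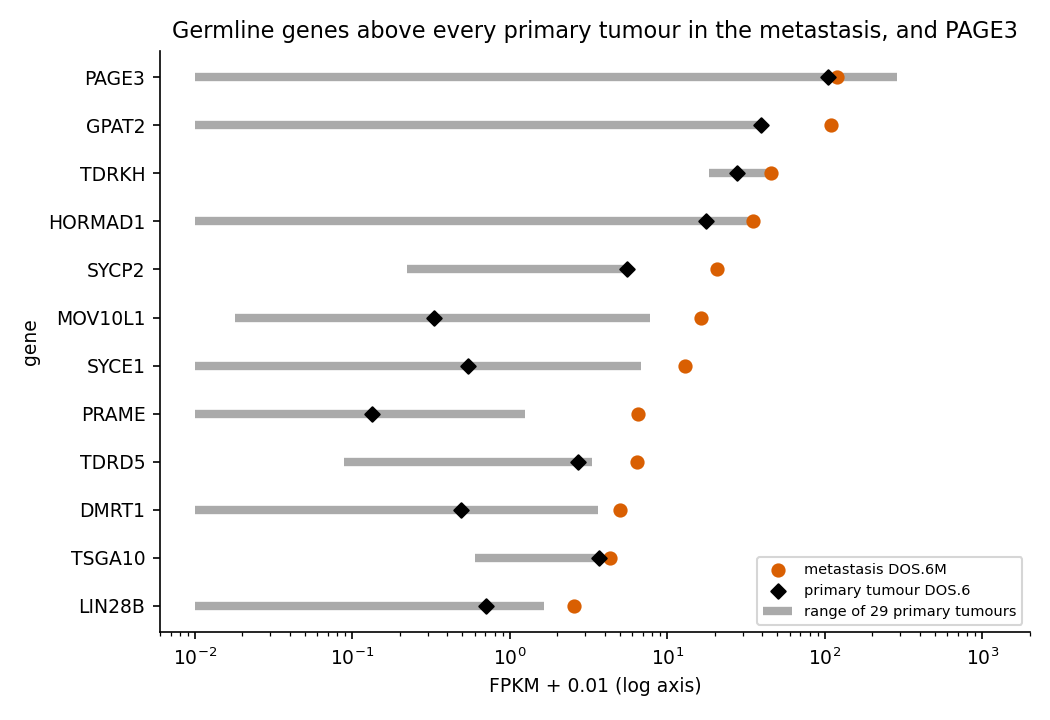
FPKM + 0.01 on a log axis of PAGE3, GPAT2 and the 10 listed germline genes above all primary tumours in the metastasis; the circle is the metastasis DOS.6M, the diamond the primary tumour DOS.6 and the grey bar the range of the 29 primary tumours. GPAT2 lies at 109 FPKM, beyond the highest primary tumour at 39.3 FPKM, while PAGE3 at 120 FPKM lies within its bar.

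The listed genes other than PAGE3 and GPAT2 were tested between the 2 lines and the 29 primary tumours with limma on log2(FPKM + 1) and Benjamini-Hochberg adjustment over all genes. Of 15165 genes, 2489 (16.4%) had an adjusted p below 0.05, 1288 higher in the lines (8.49%) and 1201 lower (7.92%). The p-values measure the spread between these samples, and with 2 lines that spread came almost wholly from the tumours. Of the 61 germline genes, 5 were higher in the lines and 1 was lower, which is 9.84% of the list and under the 16.4% of all genes.

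The 5 higher genes included ROPN1L, at 9.04 FPKM in OSCA.8 and at 3.56 FPKM in OSCA.78, whereas the tumours ran from 0.180 to 4.16 FPKM with a median of 0.798 FPKM (log2 change 1.86 ± 0.39 SE, limma adjusted p = 0.0011). ANKRD45 was at 1.77 and 1.86 FPKM in OSCA.8 and OSCA.78, above all tumours, whose highest was 1.52 FPKM (1.11 ± 0.24, limma adjusted p = 0.00136). MAGEF1, a member of the MAGE family that most tissues express, had a log2 change of 1.07 ± 0.30 (limma adjusted p = 0.0149). TDRD12 (1.21) and DDX39A (1.09) of the piRNA list were also higher, and the mismatch repair gene MLH3, which acts at meiotic crossovers, was lower (-0.99). MLH3 was at 6.02 FPKM in OSCA.8 and 1.52 FPKM in OSCA.78, against 3.91 to 12.2 FPKM in the tumours, so only OSCA.78 lay below them.

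Of the cancer-testis genes of the X chromosome (5 tested), the sperm structure list (8) and the mitotic cancer-testis list (9), none passed the test in either direction. Lists this short say little beside a share of 16.4% over all genes, so no conclusion is drawn from them. The DNA methylation list had 0 of 20 higher and 2 lower, the methyl-CpG binding proteins MBD2 (-1.22) and MBD1 (-1.10). Among the 29 genes that hold germline genes silent, 1 was higher and 2 were lower. The shares of both lists were below the 16.4% of all genes. L3MBTL2, a subunit of a Polycomb complex, was higher (1.36), and FAM208A, a subunit of the HUSH silencing complex, was lower (-0.80). FAM208A was at 14.4 FPKM in OSCA.8, within the range of the tumours (9.79 to 22.5 FPKM), and at 4.52 FPKM in OSCA.78, so its call rests on OSCA.78 alone. Without OSCA.78 its log2 change was -0.059 (limma adjusted p = 0.956).

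EED, a core subunit of Polycomb repressive complex PRC2, was at 0.0145 FPKM in OSCA.8 and listed at 0 in OSCA.78, against 0.692 to 29.9 FPKM with a median of 13.7 FPKM in the tumours (log2 change -3.56 ± 0.75 SE, limma adjusted p = 0.00139). The osteoblast culture held 14.9 FPKM of EED. PAGE3 was on in OSCA.8 and at 0 in OSCA.78, and a link between EED and the PAGE3 state was not tested.

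In the glycerolipid list, 3 of 35 genes were higher and 2 lower, a share of 14.3% that lies near the 16.4% of all genes. LPIN1, a phosphatidate phosphatase, was at 9.54 FPKM in OSCA.8 and 13.1 FPKM in OSCA.78, beyond the tumours, which ran from 1.24 to 5.79 FPKM (log2 change 1.91 ± 0.31 SE, limma adjusted p = 4.9e-05). LPCAT3, which remodels phospholipids, was higher (1.73) and ACSL5, which activates fatty acids, was lower (-3.12). None of the 8 acyltransferases named above beside GPAT2 passed the test, with limma adjusted p-values from 0.071 to 0.74.

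Leaving out OSCA.78 ended the call for 12 of these 14 genes, namely all except ROPN1L and LPIN1, and leaving out OSCA.8 ended it for ROPN1L (adjusted p = 0.0971), TDRD12 and MBD1. Without OSCA.78 the log2 change shrank most for FAM208A, MLH3 (-0.25), DDX39A (0.56) and MAGEF1 (0.70). The other 8 genes had changes of 0.94 (L3MBTL2), 1.29 (LPCAT3), -3.55 (EED), -3.16 (ACSL5), 1.09 (ANKRD45), -1.19 (MBD1), -1.08 (MBD2) and 1.23 (TDRD12). LPIN1 passed with either line left out. Cell type and cell cycle markers moved with the lines, and their part in the results was not tested. Lower in the lines were 9 of 9 macrophage markers, 6 of 6 endothelial markers (median log2 change -4.43) and 4 of 7 bone-forming markers (-4.24). Higher were 2 of 2 epithelial markers (2.82) and 3 of 6 cell cycle markers (0.95), and of 4 cartilage markers 1 was higher and 1 lower. The mean log2 level of the macrophage markers in OSCA.8 was 0.22 and in OSCA.78 it was 0.23, whereas in the primary tumours it ran from 3.05 to 6.70. PAGE3 was at 241 FPKM in OSCA.8 and listed at 0 in OSCA.78, and a link to these markers was not tested.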

How the data were processed

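One deposited table gives 34 libraries as columns and 23988 genes as rows. Its header names no unit, and the deposited values were read as FPKM: per the submitters' processing notes, the tools were FastQC 0.11.2, TopHat2 2.0.13 and Cufflinks 2.2.1, and the assembly was canFam3. The order of steps, the annotation, the parameters and the masking were all not given in the sources used here. Per the labels' protocols, libraries were made from total RNA with TruSeq RNA v2. Read counts were not used here. A relative depth was taken from the steps of low values, and ranged from 0.757 to 2.05 of the FPKM of 1 step in the median library. Intervals (95%, Poisson) and floors (3 counts) treat 1 step as 1 fragment and cover counting error only.

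Only genes that reached 1 FPKM in 2 libraries or more entered (15165, or 15164 without the gene being followed). After adding 1 FPKM, values were taken to log2, and fold changes are on that scale. The lines were compared with the tumours in limma 3.58.1 (two-sided, lmFit and eBayes, both trend and robust on) under R 4.3.3, with Benjamini-Hochberg adjustment and a threshold of 0.05, and checked on simulated data. Python 3.11.15 with numpy 2.4.6, pandas 2.3.3 and scipy 1.17.1 was used for the rest.

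Named genes were, for each of PAGE3 and GPAT2, the 10 with the highest and 5 with the lowest Spearman rho among genes with a symbol and the 5 with the largest on minus off difference without overlap, for each list up to 3 called in the lines and the 2 most like each gene, and the acyltransferases and genomic neighbours of GPAT2. Some genes that meet this rule are not reported here. The members and the lists were chosen with earlier results of these data known. Title numbers 8 and 78 occur among both lines and tumours, and 6 in the metastasis and a tumour, and the labels do not say that a number marks 1 dog. Tried as alternatives were another pseudocount, no filter, upper quartile scaling, other thresholds, Pearson r, leaving out each line, and, chosen after seeing the data, DOS.100 and DOS.32 as 1 tumour and the title number as a block.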

Additional observations from a re-analysis of the deposited data

How the results depend on the processing

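The number of genes called between lines and tumours was 2489. It ranged from 344 to 1998 when 1 line was left out, the lowest without OSCA.78. At a pseudocount of 0.1 FPKM it was 2760, with 1121 higher and 1639 lower in the lines, against 1288 higher and 1201 lower, and it was 2443 under upper quartile scaling. Among the called listed genes, DDX39A and TDRD12 also lost the call with no filter, and each of them under another setting. PAGE3 was on in 17 tumours at a threshold of 1 FPKM, and GPAT2 was on in 5 at 5 FPKM, where both were on in 3. At an off threshold of 0.5 FPKM, 7 tumours were off for PAGE3 and 9 for GPAT2. With Pearson r of log2(FPKM + 1) in place of rho, 13 genes reached 0.6 in size with PAGE3, against 22, and 94 with GPAT2, against 57, and 3 of the 10 genes most like each of them stayed in the list. For GPAT2 a pseudocount of 0.1 FPKM moved the median difference to 0.415 for cancer-testis genes of the X chromosome and to 0.527 for meiosis. With on at 1 FPKM and off at 0.5 FPKM, the glycerolipid list moved to -0.0166 by PAGE3, against 0.126, and to 0.141 by GPAT2, against 0.00908. At those thresholds the sign also changed for the piRNA list by PAGE3 (-0.0399, against 0.0899), for sperm structure by PAGE3 (-0.0415, against 0.0155) and by GPAT2 (-0.050, against 0.0311), and for cancer-testis genes of the X chromosome by PAGE3 (0.00054, against -0.0047). The median of the piRNA list by GPAT2, -0.0018, was above 0 under each of the 4 alternatives run for it (0.0030 to 0.0525). None of the 14 named genes called between lines and tumours, and no named likeness, changed sign. The causes were not tested. OSCA.8 and OSCA.78 share a title number with DOS.8 and DOS.78, and their deviations correlated at r = 0.30 and 0.24. The labels do not say that the number marks 1 dog, so whether they share more than a number is not known. With the number as a block, chosen after seeing the data, limma called 0 genes, LPIN1 among those lost, against 2489, with 3164 at an unadjusted p below 0.05. That fit rests on 2 pairs with 1 residual degree of freedom. Depth limits the off states, PAGE3 most of all, and the on and off groups are small.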
